A study of Mus musculus with 8 samples.

Results

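The genes described here are the expressed neighbours of Cyp1b1 on mouse chromosome 17. They were chosen by position and by summed counts: rows of the count table on chromosome 17 that start between 70 and 90 Mb and hold at least 80 counts over the 8 libraries, leaving out Cyp1b1, Eif2ak2 and Cox7a2l. This rule kept 88 genes of 242 rows in the window and of 54532 rows in the table. Of the rows it left out, 151 had fewer than 80 counts, among them 67 at 0 in every library. All 88 genes passed the low-count filter and were tested. The window of 20 Mb was proposed after genes near Cyp1b1 had been seen to change often in these same libraries, so its share of changed genes is a description and no independent support.

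RNA was sequenced from primary CD4 T cells of mouse spleen, cultured for 2 days under pathogenic Th17 conditions, which drive helper T cells toward the interleukin-17 producing type linked to autoimmune inflammation. The 4 libraries of one group are labelled WT and the 4 of the other CYP1B1 knockout (Cyp1b1-/-), and no other allele, agent, strain, sex or age is given in the labels. Whether replicates are separate animals or cultures is not in the labels, and p-values therefore cover the spread among these libraries alone, which may be technical. Cyp1b1 itself went against the label, with 64, 34, 63 and 69 counts in the wild type libraries and 2179, 3169, 3007 and 2069 counts in those labelled knockout. Gene counts do not show exons, and whether the labels were exchanged, which would turn every direction, cannot be told from them. Each direction below is therefore that of the libraries labelled knockout.

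Total counts ran from 8918342 to 15667313 per library, and the 88 genes took 0.432% to 0.462% of them. Summed T cell markers were at 2441 to 2610 CPM (counts scaled to the library total) in the wild type libraries and 2511 to 2670 CPM in those labelled knockout, and the CD8 markers at 15.4 to 18.3 and 15.3 to 17.7 CPM.

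Cyp1b1 encodes a cytochrome P450 enzyme that oxidises steroids, fatty acids and aromatic pollutants, and its transcription is driven by the aryl hydrocarbon receptor, a sensor of small molecules that Th17 cells express strongly. Neighbouring genes can be tied to each other in several ways. A pair on opposite strands can share a promoter and point away from each other, a transcript can run past the end of one gene into the next, and a small nucleolar RNA (snoRNA) is cut out of an intron of its host gene. The library protocol names no step that marks strand, so whether reads of genes that overlap on opposite strands were told apart is not known.

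More of the neighbours were lower than higher in the libraries labelled knockout. Of 88 genes, 13 were called higher and 26 lower by edgeR's quasi-likelihood test at an adjusted p of 0.05, and 49 did not pass. The share called was 44.3%, beside 30.4 percent called of all 14428 genes tested, with 15.7 percent higher and 14.6 percent lower. A change of at least 2-fold was called for 13 of the 88, 2 higher and 11 lower, or 14.8% beside a background of 4.01 percent. Of these 13, AC154187.2, CT009715.1, Snord53, Gm9320, Nlrc4, AC151284.2, Gm26637 and C430042M11Rik met the minimum count only through the label where they are high. The background genes were chosen by the low-count filter alone, so the 44.3% and 14.8% are descriptions. At a minimum of 200 counts, 12 of 77 genes were called higher and 20 lower. Libraries of both labels did not overlap in 42 of the 88, beside a background of 29.2 percent of all genes. The median log2 fold change of the 88 genes was -0.089, beside -0.00099 over all genes tested, and the median of its size was 0.292 beside 0.210.

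Change was more frequent before the Cyp1b1 locus (toward lower coordinates) than after it. Before it, 10 of 47 genes were called higher and 17 lower, a share of 57.4%, and 12 of them changed at least 2-fold. After it, 3 of 41 were called higher and 9 lower, a share of 29.3%, which is near the background, and 1 changed at least 2-fold. The median size of the log2 fold change was 0.431 before and 0.220 after. The 2-fold changes were 25.5% of the genes before and 2.44% of those after, beside 4.01 percent of all genes tested. Libraries did not overlap in 29 genes before (61.7%) and 13 after the locus (31.7%), beside 29.2 percent of all genes, which the share after the locus lies near. The difference between the sides was not tested. On both sides the counts of 2-fold changes include rows that met the minimum through 1 label alone, where they are high.

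**Figure D1:**
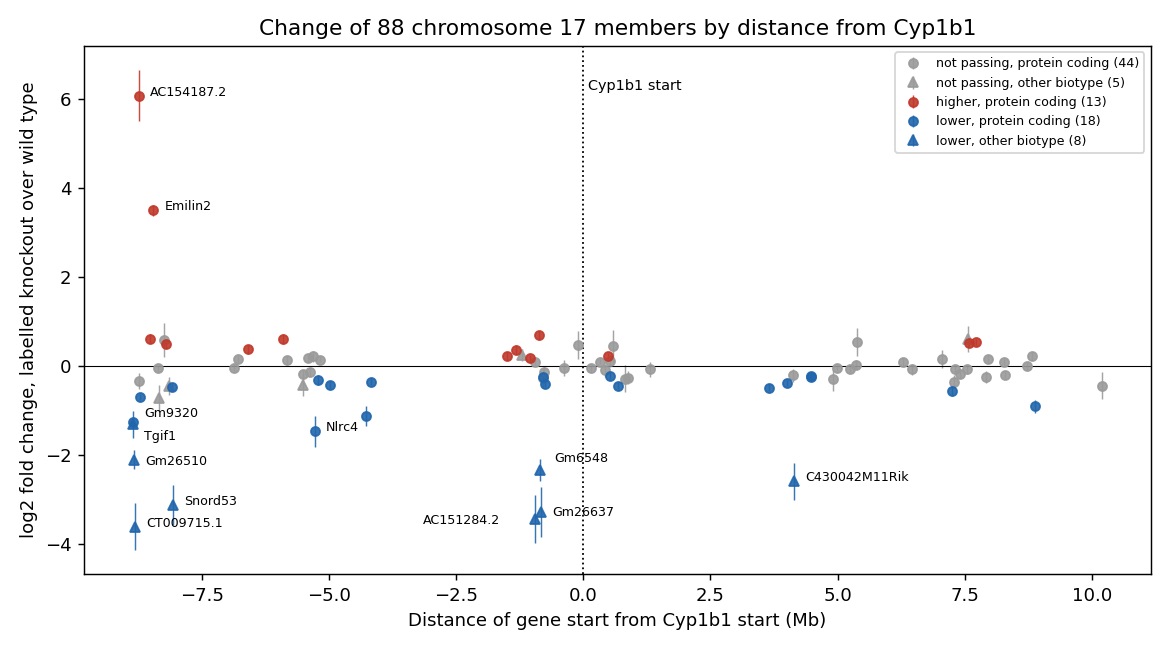
Log2 fold change (libraries labelled knockout over wild type, bars are SE) of each of the 88 genes against the distance of its start from that of Cyp1b1 in Mb, with circles for protein-coding genes and triangles for other biotypes. The called genes of largest change lie before the dotted line, among them AC154187.2 at 6.08 and Emilin2 at 3.50, and C430042M11Rik at -2.60 is the only gene after it that was called with at least 2-fold change.

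The genes were spread unevenly along the window. It was counted in bins of 2 Mb. The first, from 70 to 72 Mb, held 16 genes, of which 4 were called higher and 7 lower, 7 of them by at least 2-fold. The bin from 72 to 74 Mb held 5 genes, 2 higher and none lower, and that from 74 to 76 Mb held 11, none higher and 5 lower. No member started between 76 and 78 Mb, inside a gap of 2.66 Mb between Fam98a and Crim1. The bin from 78 to 80 Mb, which contains Cyp1b1, held 16 genes, 4 higher and 5 lower. From 80 to 90 Mb the 5 bins held 10, 4, 8, 14 and 4 genes, with 3, 3, 2, 3 and 1 called. The share called was 68.8% in the first bin and 56.3% in that of Cyp1b1, and over the other bins with a member it ran from 21.4% (3 of 14, 86 to 88 Mb) to 75.0% (3 of 4, 82 to 84 Mb). Whether the calls cluster beyond the spacing of the genes was not tested. Read in order, the 39 called genes formed 15 runs of equal direction, the longest of them 8 genes called lower from Dhx57 to Rhoq. Elsewhere on chromosome 17 the share called was 34.2% of 281 genes up to 30 Mb, 33.8% of 266 from 30 to 50 Mb and 40.2% of 92 from 50 to 70 Mb. It was 30.3% of 13478 genes on other chromosomes.

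**Figure D2:**
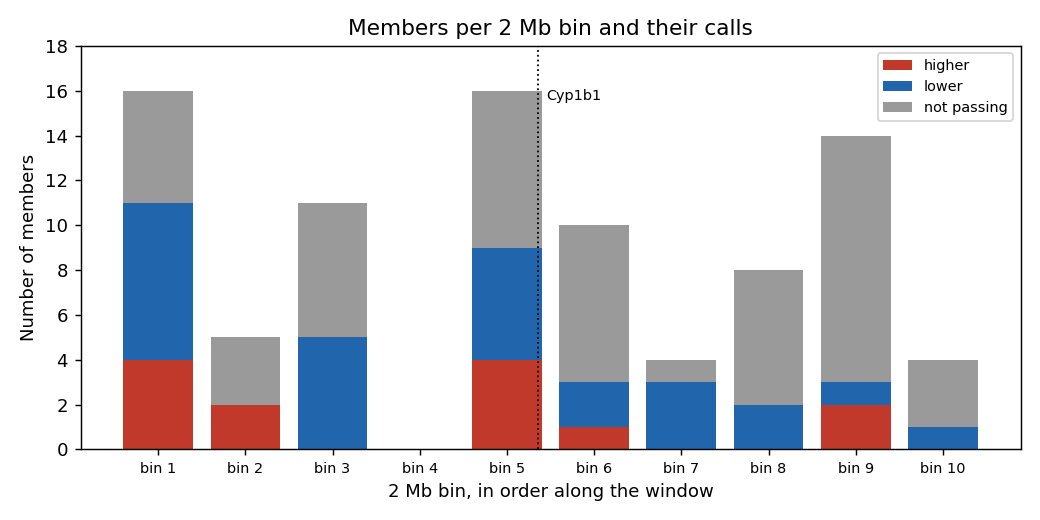
Number of genes per 2 Mb bin, from 70 Mb (bin 1) to 90 Mb (bin 10), coloured by call, with the dotted line at Cyp1b1. Bins 1 and 5 hold 16 genes each with 11 and 9 called, and bin 4 holds none.

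The window opened with 4 neighbours that all fell. Tgif1 (ENSMUSG00000047407, chr17:70844205-70853546 in GRCm38, minus strand) encodes a homeodomain repressor that restrains TGF-beta signalling, one of the cues of Th17 differentiation. Its level was 39.6, 42.3, 52.3 and 43.0 CPM in wild type replicates 1 to 4 and 17.3, 19.0, 18.6 and 19.2 CPM in replicates 1 to 4 labelled knockout. The groups did not overlap, and the mean fell from 44.3 ± 5.54 to 18.5 ± 0.837 CPM (SD, n = 4 each), a change of -1.26 on the log2 scale (SE 0.10, edgeR adjusted p = 1.36e-09). Gm9320 (ENSMUSG00000100865, chr17:70853767-70876312, plus strand), a transcribed processed pseudogene, starts 221 bases from the Tgif1 start and points away from it. It was at 2.84, 4.41, 2.44 and 3.51 CPM in the wild type libraries and 0.990, 0.901, 2.23 and 1.17 CPM in those labelled knockout, a change of -1.31 on the log2 scale (SE 0.30, edgeR adjusted p = 0.00214), with no overlap between the groups. The 220 bases between both starts are shown because both genes fell.

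Tgif1 to Gm9320, chr17:70853547-70853766, plus strand, RefSeq GRCm38.p6, none of the motif words searched present and therefore no capitals: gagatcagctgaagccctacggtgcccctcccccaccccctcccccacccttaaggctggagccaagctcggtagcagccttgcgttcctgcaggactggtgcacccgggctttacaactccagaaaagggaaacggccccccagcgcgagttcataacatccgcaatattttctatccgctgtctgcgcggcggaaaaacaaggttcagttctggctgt

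Of these bases 59.1% were G or C. Gm26510 (ENSMUSG00000097154, minus strand), a long intergenic RNA whose 3′ part overlaps that of Gm9320 on the other strand, was at 5.54, 8.70, 6.69 and 8.80 CPM in the wild type libraries and 1.56, 2.08, 1.23 and 1.94 CPM in those labelled knockout. Its log2 fold change was -2.10 (SE 0.22, edgeR adjusted p = 1.94e-07). CT009715.1 (ENSMUSG00000117121), a transcript of biotype TEC, a class that awaits experimental proof, lies inside an intron of Gm26510 on the same strand and had 30, 28, 29 and 27 counts in the wild type libraries and 0, 0, 3 and 7 counts in those labelled knockout. Every wild type library had at least 27 counts, whereas 2 libraries labelled knockout had none. Over each group, 114 counts stood against 10, a ratio per total of 12.5 (counting interval 6.55 to 26.7). Knockout replicate 4 held 7 of the 10, and the fitted log2 fold change of -3.61 became -4.78 without it. The edgeR adjusted p was 1.78e-05. All 1881 bases of CT009715.1 lie inside Gm26510 and share no exon base with it. A further row, Gm26561, spans most genes from Gm26510 to Smchd1 on the plus strand with 34 counts in all, too few to be tested.

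Next to them lies the pair of myosin light chain genes, and a row that joins them gave the largest rise of all 88 genes. Myl12a and Myl12b encode near-identical regulatory light chains of non-muscle myosin II, the motor that T cells use to move and divide. AC154187.2 (ENSMUSG00000117098, chr17:70974119-71002208, minus strand) had 0, 0, 1 and 1 counts in the wild type libraries and 44, 47, 61 and 28 counts in those labelled knockout. The 180 counts labelled knockout against 2 wild type counts gave a ratio per total of 82.2 (counting interval 22.4 to 684), and a change of 6.08 on the log2 scale (SE 0.58, edgeR adjusted p = 3.56e-08). This row met the minimum count of the rule through the libraries labelled knockout alone, where it is high. Its rank among the 88 genes is therefore a description, and nothing is read from it. In the GENCODE M21 annotation all 1201 exon bases of this row belong to the exons of its neighbours, 462 to Myl12a and 739 to Myl12b. Its 2 transcripts run from Myl12a exons to Myl12b exons, and they have no base of their own, only joins. The coding join of the transcript that takes its exons 1 to 3 from Myl12a and its exon 4 from Myl12b is shown as 1 of these joins. Its bases were not compared with the joins inside Myl12a or Myl12b. Whether a read over it can be told from a read of either neighbour is therefore not known.

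AC154187.2, end of exon 3 at position 70996110 and start of exon 4 at 70974496, minus strand, GRCm38, capitals mark the Myl12b side: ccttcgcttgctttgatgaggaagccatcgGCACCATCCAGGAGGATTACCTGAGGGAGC

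Myl12a (ENSMUSG00000024048) fell over the same libraries. It was at 79.7, 72.5, 73.1 and 81.3 CPM in wild type replicates 1 to 4 and 45.7, 45.1, 49.2 and 49.4 CPM in replicates 1 to 4 labelled knockout. The groups did not overlap, with a change of -0.70 on the log2 scale (SE 0.07, edgeR adjusted p = 1.79e-07). Myl12b was at 6.32, 10.6, 8.22 and 7.15 CPM in the wild type libraries and 5.66, 5.27, 7.61 and 6.68 CPM in those labelled knockout, groups that overlapped, with a log2 fold change of -0.34 (SE 0.17, adjusted p = 0.148). No source used here names the counter or its treatment of shared reads, so how reads of shared exons were divided among the 3 rows is unknown and each of their values is uncertain. The 28 to 61 counts of AC154187.2 in each library labelled knockout were few beside at least 640 counts of Myl12a in each.

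Lpin2, Emilin2 and Ndc80 followed, all higher in the libraries labelled knockout. Emilin2 (ENSMUSG00000024053, chr17:71252172-71311978, minus strand) encodes a glycoprotein of elastic extracellular matrix. It was at 6.04, 6.94, 5.37 and 4.88 CPM in wild type replicates 1 to 4 and 57.0, 61.9, 73.8 and 66.0 CPM in replicates 1 to 4 labelled knockout. Each library labelled knockout lay above every wild type library by more than the spread within either group, and the mean went up from 5.81 ± 0.892 to 64.7 ± 7.11 CPM (SD, n = 4 each), a change of 3.50 on the log2 scale (SE 0.12, edgeR adjusted p = 4.07e-16). Lpin2, a phosphatidate phosphatase that makes diacylglycerol, is its neighbour on the plus strand. Its libraries were at 16.8, 18.8, 17.3 and 15.5 CPM in the wild type libraries and 22.3, 26.2, 27.1 and 28.8 CPM in those labelled knockout. The groups did not overlap, and its log2 fold change was 0.62 (SE 0.10, adjusted p = 8.93e-05). Ndc80, an outer kinetochore protein that ties chromosomes to the spindle, was at 33.9, 35.4, 34.7 and 34.5 CPM in the wild type libraries and 46.0, 54.6, 54.0 and 41.2 CPM in those labelled knockout. Its groups did not overlap, and the log2 fold change was 0.50 (SE 0.09, adjusted p = 0.000201). Between Emilin2 and Ndc80 lies Smchd1, a chromatin protein of X inactivation, which was at a mean of 342 CPM in the wild type libraries and 331 CPM in those labelled knockout and did not pass (adjusted p = 0.628).

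The first bin ends with Wdr43 and the snoRNA inside it, which both fell. Wdr43 (ENSMUSG00000041057, chr17:71616215-71659031, plus strand), a factor of ribosomal RNA transcription and processing, was at 136, 132, 149 and 133 CPM in wild type replicates 1 to 4 and 96.8, 105, 100.2 and 92.7 CPM in replicates 1 to 4 labelled knockout. The groups did not overlap, with a change of -0.48 on the log2 scale (SE 0.07, edgeR adjusted p = 1.05e-05). Snord53 (ENSMUSG00000092887) is a C/D box snoRNA, the class that guides methylation of ribosomal RNA, and lies in an intron of Wdr43 with no shared exon base. Its sequence is shown to give its size beside the fragments that the library protocol selected, which are several times longer.

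Snord53, chr17:71640879-71640956, plus strand, GENCODE M21, capitals mark the C box: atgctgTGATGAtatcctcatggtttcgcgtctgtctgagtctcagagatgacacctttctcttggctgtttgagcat

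Snord53 had 21, 11, 44 and 25 counts in the wild type libraries and 3, 3, 3 and 3 counts in those labelled knockout. Every library labelled knockout had 3 counts and every wild type library at least 11, a change of -3.12 on the log2 scale (SE 0.44, edgeR adjusted p = 1.19e-05). Gm22858, another small row inside Wdr43 with 59 counts, stood at -3.17 (adjusted p = 0.000194). It has too few counts to be one of the 88. Gene counts cannot separate reads of Snord53 from reads of unspliced Wdr43 RNA.

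From 72 to 76 Mb rises came first and falls after. Lclat1, an acyltransferase that remodels cardiolipin and phosphatidylinositol, was at 22.4, 26.1, 26.1 and 21.7 CPM in the wild type libraries and 27.9, 34.3, 31.4 and 30.6 CPM in those labelled knockout. It rose with a log2 fold change of 0.37 (SE 0.10, adjusted p = 0.00508). Ehd3, an ATPase of endocytic recycling, was at 16.05, 18.9, 15.3 and 22.2 CPM in the wild type libraries and 30.8, 25.5, 24.3 and 29.6 CPM in those labelled knockout. It rose by 0.61 on the log2 scale (SE 0.12, adjusted p = 0.000384), and in both genes the groups did not overlap.

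The 5 falls from 74 to 76 Mb were Nlrc4, Yipf4, Ttc27, Rasgrp3 and Fam98a. Nlrc4, a sensor adaptor of the inflammasome best known from myeloid cells, had 26, 17, 23 and 44 counts in the wild type libraries and 6, 13, 8 and 16 counts in those labelled knockout. Its level fell from 2.09 ± 0.637 to 0.744 ± 0.277 CPM (SD, n = 4 each), a change of -1.47 on the log2 scale (SE 0.35, edgeR adjusted p = 0.00246). Nlrc4 met the minimum count of the rule through the wild type libraries alone, where it is high. Rasgrp3, a diacylglycerol-activated exchange factor for Ras best known from B cells, was at 6.75, 8.04, 4.67 and 10.8 CPM in the wild type libraries and 3.32, 4.09, 2.38 and 3.89 CPM in those labelled knockout. Wild type replicate 4 was the highest and the groups did not overlap, with a change of -1.13 on the log2 scale (SE 0.23, edgeR adjusted p = 0.000568). Summed B cell, myeloid and dendritic cell markers moved the same way. All 8 B cell markers were called lower, from 191 to 282 CPM in the wild type libraries to 112 to 135 CPM in those labelled knockout. Of the myeloid markers 1 of 6 was called lower (summed 13.4 to 17.1 against 6.37 to 9.84 CPM). Of the dendritic cell markers it was 1 of 5 (23.2 to 27.1 against 9.50 to 15.1 CPM, with Clec9a at 0). Other lists did not fall: 1 of 3 erythroid markers was called higher (0.697 to 2.20 against 2.01 to 3.61 CPM). Of the NK cell markers 0 of 2 were called. The part of any of these cells in the falls of Nlrc4 and Rasgrp3 was not tested. In bulk RNA, fewer cells of a type and less RNA per cell cannot be told apart. Ttc27, a tetratricopeptide repeat protein, was at 37.4, 31.9, 31.1 and 31.6 CPM in the wild type libraries and 26.0, 23.6, 26.9 and 21.6 CPM in those labelled knockout, and its log2 fold change was -0.43 (adjusted p = 0.00146). Fam98a stood at -0.35 (adjusted p = 0.00203). Yipf4 at -0.32 (adjusted p = 0.0321), called in 3 of 8 fits that leave out 1 library, is the only called gene of the 39 whose libraries overlapped between labels.

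A group of called genes lies within 1.51 Mb before Cyp1b1, with small rises followed by deep falls of non-coding rows. Crim1 was higher by 0.22 (adjusted p = 0.0361) and Strn by 0.18 (adjusted p = 0.0434) on the log2 scale. Both calls were fragile: leaving out 1 library kept that of Crim1 in 3 of 8 fits and that of Strn in 2 of 8, and scaling by library totals ended both (0.103 and 0.142). Fez2 was higher by 0.36. Fez2, an adaptor of kinesin transport, was at 20.3, 16.6, 18.8 and 17.9 CPM in the wild type libraries and 21.9, 21.8, 23.4 and 27.9 CPM in those labelled knockout. These groups lay close without overlap, and the adjusted p was 0.0115, or 0.0628 without knockout replicate 4. Gpatch11 (ENSMUSG00000050668, chr17:78835567-78848308, plus strand), which holds a G-patch, a domain of RNA-handling proteins, was at 21.3, 20.6, 20.3 and 19.0 CPM in wild type replicates 1 to 4 and 32.2, 36.8, 33.2 and 28.7 CPM in replicates 1 to 4 labelled knockout. It rose with a change of 0.69 on the log2 scale (SE 0.10, edgeR adjusted p = 8.75e-06). Its head-to-head partner Heatr5b, a factor of endosomal traffic whose start lies 203 bases away, was at 63.3, 69.7, 67.7 and 66.5 CPM in the wild type libraries and 76.5, 72.3, 68.1 and 67.3 CPM in those labelled knockout. Those groups overlapped, with a log2 fold change of 0.09 (SE 0.07, adjusted p = 0.355). The bases between this pair are shown because the partners differed in whether they were called.

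Heatr5b to Gpatch11, chr17:78835365-78835565, plus strand, RefSeq GRCm38.p6, capitals mark the word CCAAT: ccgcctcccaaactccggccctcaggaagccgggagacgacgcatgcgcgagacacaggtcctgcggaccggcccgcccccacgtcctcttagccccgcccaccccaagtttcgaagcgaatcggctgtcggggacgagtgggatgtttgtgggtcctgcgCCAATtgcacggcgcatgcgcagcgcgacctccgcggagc

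The deep falls here belong to 3 rows beside Heatr5b and Eif2ak2. Gm6548 (ENSMUSG00000091549, chr17:78850792-78851956, minus strand) is a processed pseudogene whose end lies 608 bases from Eif2ak2 on the same strand. It was at 18.7, 15.9, 14.6 and 18.7 CPM in wild type replicates 1 to 4 and 2.19, 2.29, 2.77 and 6.09 CPM in replicates 1 to 4 labelled knockout. Knockout replicate 4 was the highest of its label but below every wild type library, and the log2 fold change was -2.33 (SE 0.25, adjusted p = 5.07e-06). A processed pseudogene is a copy of a spliced messenger, and reads shared with its parent gene make its value uncertain. Gm26637 (ENSMUSG00000097567), a long intergenic RNA on the plus strand that starts 531 bases inside Eif2ak2, had 19, 15, 26 and 24 counts in the wild type libraries and 2, 0, 0 and 7 counts in those labelled knockout. Its ratio over the groups was 10.2 (84 against 9 counts, counting interval 5.13 to 23.1), with an adjusted p of 9.8e-05. Here too knockout replicate 4 held 7 of the 9 counts, and the fitted change of -3.29 became -4.82 without it. Eif2ak2, which encodes the kinase PKR that senses double-stranded RNA and which the rule leaves out, had a log2 fold change of -1.65 (adjusted p = 1.64e-10). AC151284.2 (ENSMUSG00000117285), a pseudogene of Map7, ends 1402 bases before Heatr5b and had 13, 21, 29 and 19 counts in the wild type libraries and 2, 3, 0 and 3 counts in those labelled knockout. Its ratio was 11.2 (82 against 8 counts, counting interval 5.44 to 26.9), with an adjusted p of 3.26e-05. Both Gm26637 and AC151284.2 have a mean under 1 CPM and are named outside the rule for named genes, after their values were seen.

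Nearer to Cyp1b1 the changes were small. Cebpz, a ribosome biogenesis factor first described as a CCAAT-binding protein, was at 67.2, 70.9, 72.7 and 71.6 CPM in the wild type libraries and 61.4, 63.9, 58.4 and 54.8 CPM in those labelled knockout. It fell by 0.24 on the log2 scale (SE 0.07, adjusted p = 0.0121), but at 0.0520 without knockout replicate 4 and 0.0766 with no low-count filter it did not pass. Ndufaf7, an assembly factor of respiratory complex I whose start lies 70 bases from that of Cebpz, was at 14.2, 12.4, 13.7 and 13.1 CPM in the wild type libraries and 10.3, 11.996, 14.5 and 12.1 CPM in those labelled knockout. Its groups overlapped and it did not pass (log2 fold change -0.13, adjusted p = 0.452). Cebpzos, which overlaps the tail of Cebpz on the opposite strand, was at 3.05, 3.53, 3.34 and 3.23 CPM in the wild type libraries and 2.40, 3.12, 2.46 and 2.85 CPM in those labelled knockout and did not pass either (-0.27, adjusted p = 0.358). Prkd3, protein kinase D3, which diacylglycerol activates, lies 0.758 Mb before Cyp1b1 and was at 63.5, 59.2, 63.2 and 57.1 CPM in wild type replicates 1 to 4 and 46.5, 44.9, 46.1 and 47.2 CPM in replicates 1 to 4 labelled knockout. Its groups did not overlap, and it fell with a change of -0.40 on the log2 scale (SE 0.07, edgeR adjusted p = 0.00024).

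Of the 6 genes that start within 0.5 Mb of Cyp1b1, 1 was called (16.7%, beside 30.4 percent of all genes), and 0 to 2 under the alternatives. A share over 6 genes does not set them apart. Rmdn2, a microtubule-associated protein 0.0951 Mb before it, was at 2.98, 1.10, 1.18 and 1.58 CPM in the wild type libraries and 1.84, 2.91, 1.92 and 2.92 CPM in those labelled knockout. Wild type replicate 1 was the highest of all 8 libraries, and the log2 fold change of 0.46 (SE 0.31, adjusted p = 0.279) became 0.88 (adjusted p = 0.0445) without it. Cdc42ep3, an effector of the GTPase Cdc42, was at 4.97, 4.63, 4.60 and 4.26 CPM in the wild type libraries and 4.60, 4.23, 4.84 and 4.15 CPM in those labelled knockout. Its change was -0.05 (SE 0.18, adjusted p = 0.856), with overlapping groups.

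On the far side, Atl2 comes first, 0.141 Mb from Cyp1b1. Atl2, an atlastin that fuses membranes of the endoplasmic reticulum, was at 55.0, 52.8, 50.7 and 51.8 CPM in the wild type libraries and 48.4, 55.4, 54.7 and 44.5 CPM in those labelled knockout. Hnrnpll, which regulates splicing of the CD45 transcript in lymphocytes, was at 100.2, 108, 101 and 106 CPM in the wild type libraries and 115, 110.3, 106 and 113 CPM in those labelled knockout. Galm, a galactose mutarotase, was at 9.23, 13.2, 9.89 and 14.2 CPM in the wild type libraries and 10.04, 10.7, 9.76 and 12.7 CPM in those labelled knockout. The groups of these 3 genes overlapped, and their log2 fold changes were -0.05, 0.10 and -0.10 (SE 0.08, 0.06 and 0.15), none passing. Srsf7, a splicing factor of the SR family, was at 139.9, 112, 134 and 131 CPM in the wild type libraries and 165, 146, 147 and 146 CPM in those labelled knockout. Its groups did not overlap and the log2 fold change of 0.22 (SE 0.07) passed at an adjusted p of 0.0246. That call was lost when libraries were scaled by their totals (0.0762) and without wild type replicate 2 (0.132), wild type replicate 4 (0.0566) or knockout replicate 1 (0.0861). Gemin6, a part of the complex that assembles spliceosomal particles, was at 9.73, 9.91, 12.6 and 10.2 CPM in the wild type libraries and 12.1, 11.6, 10.5 and 11.7 CPM in those labelled knockout and did not pass (0.11, adjusted p = 0.543).

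From Dhx57 to Rhoq each of the 8 called genes was lower. Dhx57, a putative RNA helicase, was at 60.3, 76.0, 67.4 and 64.6 CPM in the wild type libraries and 57.6, 57.9, 55.9 and 58.9 CPM in those labelled knockout, with a log2 fold change of -0.22 (adjusted p = 0.0341). It did not pass without wild type replicate 2 (0.131) or 3 (0.0704), without knockout replicate 1 (0.0600), 3 (0.0872) or 4 (0.0513), or with no low-count filter (0.151). Sos1, the exchange factor that activates Ras below the T cell receptor, was at 60.002, 72.5, 68.8 and 68.5 CPM in wild type replicates 1 to 4 and 46.4, 54.8, 49.3 and 47.6 CPM in replicates 1 to 4 labelled knockout. It fell with a change of -0.44 on the log2 scale (SE 0.08, edgeR adjusted p = 0.000166), and the groups did not overlap. Eml4, a microtubule-associated protein, was at 104, 116, 119 and 117 CPM in the wild type libraries and 87.2, 87.0, 75.9 and 75.8 CPM in those labelled knockout. Mta3, a subunit of the NuRD chromatin remodelling complex, was at 95.1, 103, 92.7 and 96.3 CPM in the wild type libraries and 71.2, 72.1, 71.9 and 80.9 CPM in those labelled knockout. Both fell without overlap, by 0.49 and 0.38 on the log2 scale (SE 0.07 and 0.07, adjusted p = 1.92e-05 and 0.000171). Zfp36l2, which binds AU-rich elements and speeds messenger decay, was at 244, 265, 255 and 261 CPM in the wild type libraries and 211, 208, 229 and 218 CPM in those labelled knockout, a change of -0.24 on the log2 scale (SE 0.06, edgeR adjusted p = 0.00426). Thada, at -0.23 (adjusted p = 0.0146, called in 6 of 8 fits that leave out 1 library), C430042M11Rik and Rhoq complete the 8.

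C430042M11Rik, a long intergenic RNA on the minus strand 4.14 Mb after Cyp1b1, gave the largest change on that side. It had 21, 13, 27 and 25 counts in the wild type libraries and 2, 6, 5 and 2 counts in those labelled knockout. The groups did not overlap, with a change of -2.60 on the log2 scale (SE 0.43, edgeR adjusted p = 6.56e-05). Its mean was under 1 CPM, so it is named outside the rule as well. Rhoq, a small GTPase that acts in membrane traffic, was at 96.2, 108, 87.5 and 87.7 CPM in wild type replicates 1 to 4 and 50.6, 72.5, 73.9 and 57.4 CPM in replicates 1 to 4 labelled knockout. It fell with a change of -0.57 on the log2 scale (SE 0.11, edgeR adjusted p = 0.000488). Its last 2814 bases overlap the end of Pigf, a gene of GPI anchor synthesis on the opposite strand, 312 of them in exons of both. Pigf was at 11.6, 14.4, 10.5 and 15.4 CPM in the wild type libraries and 13.01, 9.08, 8.15 and 10.3 CPM in those labelled knockout. Its groups overlapped and it did not pass (-0.35, adjusted p = 0.0875). It passed at 0.0440 without wild type replicate 3, at 0.0213 without knockout replicate 1 and at 0.0429 with replicate number as a block.

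The last called genes were Ttc7, Calm2 and Ston1. Calm2 (ENSMUSG00000036438, chr17:87433412-87446935, minus strand), 1 of the genes for the calcium sensor calmodulin, was at 273, 232, 269 and 256 CPM in wild type replicates 1 to 4 and 385, 392.1, 382 and 343 CPM in replicates 1 to 4 labelled knockout. Its mean went up from 258 ± 18.6 to 375 ± 22.3 CPM (SD, n = 4 each) without overlap, a change of 0.54 on the log2 scale (SE 0.07, edgeR adjusted p = 1.53e-06). Per kilobase of gene length it had the highest level of the 88 genes, 176 CPM per kilobase in the wild type libraries, ahead of Zfp36l2 at 72.5 and Lbh at 58.8. The calmodulin genes encode 1 protein but differ in their messengers. Ttc7, a scaffold of the kinase complex that makes phosphatidylinositol 4-phosphate, was at 68.0, 62.8, 64.0 and 63.6 CPM in the wild type libraries and 101, 80.6, 89.1 and 101 CPM in those labelled knockout. It rose without overlap, a change of 0.53 on the log2 scale (SE 0.08, edgeR adjusted p = 1.71e-05). Its head-to-head partner 4833418N02Rik, a long intergenic RNA 72 bases away, was at 1.42, 0.991, 2.09 and 1.03 CPM in the wild type libraries and 2.33, 2.22, 1.92 and 2.14 CPM in those labelled knockout. That partner did not pass (0.61, adjusted p = 0.121), except without wild type replicate 3 (0.88, adjusted p = 0.0483). Ston1, an adaptor of endocytosis, was at 15.1, 11.9, 11.1 and 11.3 CPM in the wild type libraries and 6.08, 7.14, 5.38 and 7.58 CPM in those labelled knockout. It fell by 0.91 on the log2 scale (SE 0.15, adjusted p = 6.55e-05), without overlap.

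4833418N02Rik to Ttc7, chr17:87282815-87282885, plus strand, RefSeq GRCm38.p6, shown for a pair whose estimates are alike in sign and size, capitals mark GCGTG read on the other strand: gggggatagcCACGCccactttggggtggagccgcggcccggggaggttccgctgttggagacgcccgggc

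**Figure D3:**
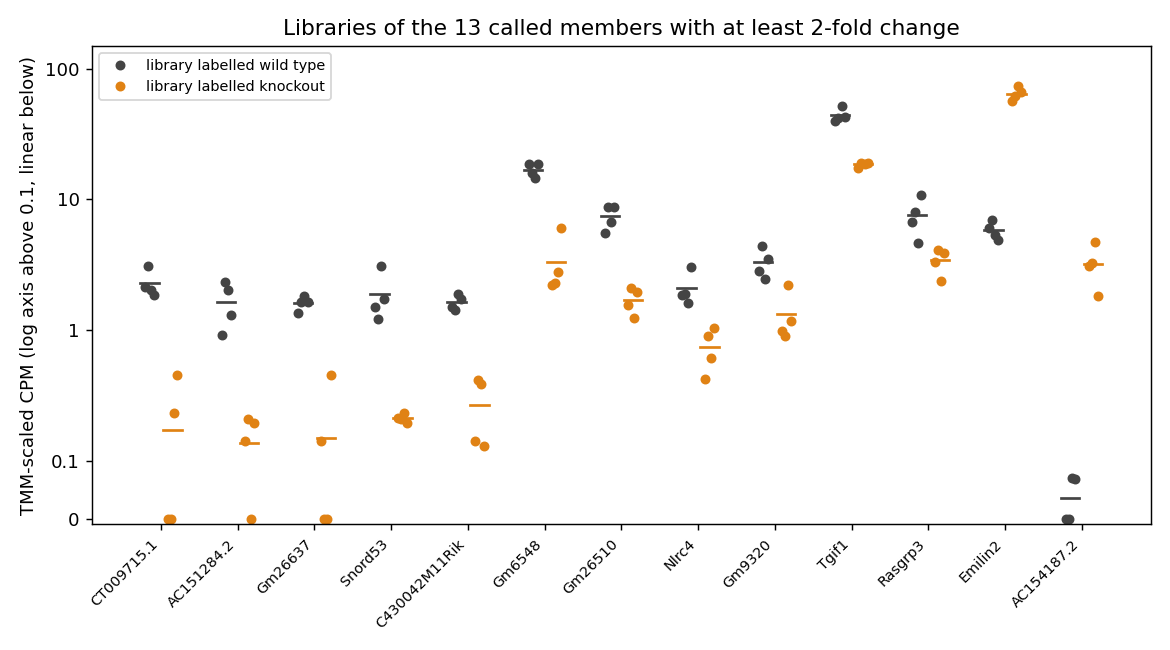
CPM of each library (points) and the mean of each label (bars) for the 13 genes called with at least 2-fold change, on an axis that is logarithmic above 0.1 CPM and linear below. No gene shown has overlapping labels, and AC154187.2 and Emilin2 are the only genes of the 13 that were higher in the libraries labelled knockout.

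The shares called were alike on both strands, a comparison that was not tested. Cyp1b1 lies on the minus strand, and of 46 genes on the same strand 7 were called higher and 14 lower (45.7%). Of 42 on the opposite strand 6 were higher and 12 lower (42.9%). The share was larger before the locus on either strand, 56.0% of 25 on the strand of Cyp1b1 and 59.1% of 22 on the other, beside 33.3% of 21 and 25.0% of 20 after it. Over all genes tested the share was 30.4 percent, which lies between both shares after the locus.

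Genes that overlap another row on the same strand were called more often. They are few, lie nearly all on 1 side and include rows that met the minimum count through 1 label alone. An overlap was at least 1 shared base with any row that had a count. Of 49 genes with none, 6 were called higher and 13 lower (38.8%), and of 21 that overlapped on the opposite strand alone 2 were higher and 6 lower (38.1%). Of 9 with an overlap on the same strand alone 3 were higher and 3 lower, and of 9 with both kinds 2 were higher and 4 lower, a share of 66.7% in each. Of these 18 genes 16 lie before Cyp1b1, where 11 of them were called (68.8%), beside 16 of the other 31 genes on that side (51.6%). Over all genes tested the share called was 30.4 percent. Among the called genes with a same-strand overlap, CT009715.1, Snord53, AC154187.2 and Nlrc4 met the minimum count through 1 label alone, where they are high. The other classes hold such called rows too, namely Gm9320, AC151284.2, Gm26637 and C430042M11Rik. Gm4707, Camkmt and 4833418N02Rik also entered through 1 label alone and did not pass, so entry alone does not fix a call. These shares depend in part on rows that entered this way, and nothing is read from their order. The difference between these classes was not tested. Among protein-coding genes with no overlap, 10 of 18 before the locus were called and 6 of 25 after it (55.6% and 24.0%).

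Head-to-head neighbours, which point away from each other with starts within 1 kb, formed 8 pairs, of which 7 had estimates of equal sign. The share of equal signs over such pairs elsewhere was not computed, so nothing is read from the 7. Some signs are uncertain, as for Prepl (0.03, SE 0.10), Heatr5b (0.09, SE 0.07) and Cript (-0.08, SE 0.09). In 2 pairs both genes were called, Tgif1 with Gm9320 and Eif2ak2 with Gm26637. The latter 2 share 174 exon bases on opposite strands, and how their reads were divided is unknown. The exception in sign was Dhx57 with Morn2, whose starts lie 273 bases apart with their spans overlapping. Morn2 was at 0.710, 0.771, 1.32 and 0.550 CPM in the wild type libraries and 0.990, 1.04, 1.08 and 1.49 CPM in those labelled knockout, groups that overlapped, and its estimate of 0.45 had an SE of 0.37 and an adjusted p of 0.382. Prepl with Camkmt and Pigf with Cript had no called gene. Sequence of the shared starts was searched on both strands for GCGTG (the core of the aryl hydrocarbon receptor site), CCAAT and CACGTG (an E-box), none of which contains another. In RefSeq promoters of 300 bases, GCGTG was found in 47.7% of 86 promoters of 62 matched genes of the 88, in 38.1% of the 42 promoters of called genes and in 32.4% of all 32851. CCAAT was found in 32.6%, 35.7% and 37.4%, and CACGTG in 11.6%, 11.9% and 7.15%. A match is a description of letters and not a site.

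**Figure D4:**
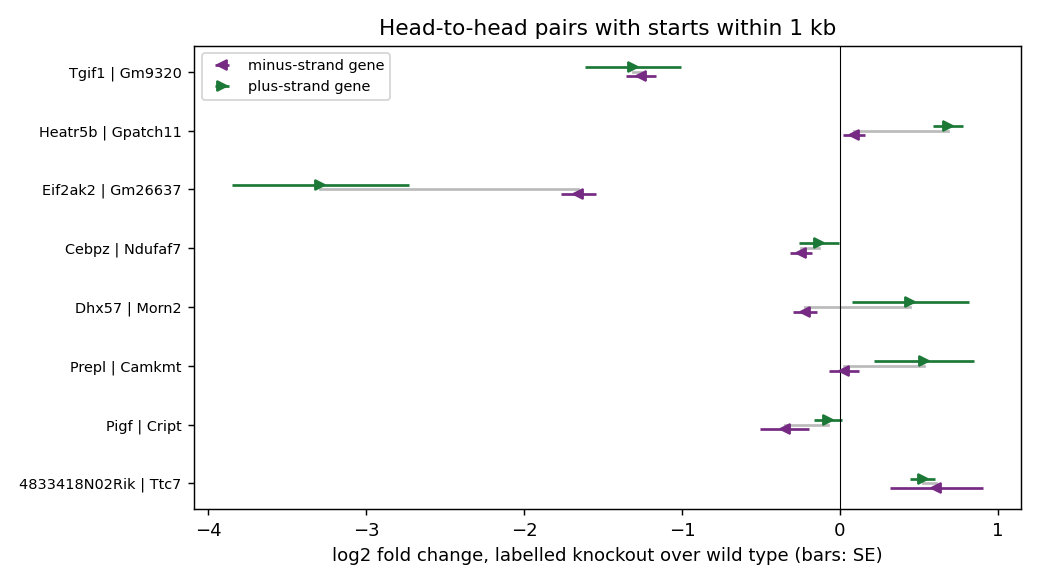
Log2 fold change (libraries labelled knockout over wild type, bars are SE) of both genes of each head-to-head pair, in order along the chromosome, with arrowheads in the direction of transcription. The pairs lie on 1 side of 0 apart from Dhx57 and Morn2, at -0.22 and 0.45, and Eif2ak2 is not one of the 88 genes.

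By biotype, coding genes were called in both directions, and most calls among other rows rest on few counts. Of 75 protein-coding genes 13 were called higher and 18 lower (41.3%, beside 33.2% of 11908 coding genes tested), and 5 changed at least 2-fold. Of 13 genes of other biotypes none was called higher and 8 lower (61.5%, beside 16.8% of 2520 tested, where 161 were higher and 262 lower). All 8 of these falls were at least 2-fold. They were 3 of 4 long intergenic RNAs, 2 of 3 processed pseudogenes, 1 of 3 TEC transcripts, the snoRNA and the transcribed processed pseudogene. The difference between biotypes was not tested. The remaining 5 were Gm37639, CT010445.1, Gm10093, 4833418N02Rik and Trmt61b, which the table lists as antisense although it is a known transfer RNA methyltransferase gene. Of the 13, 11 lie before Cyp1b1, 7 of them called lower. The 8 called had wild type means from 1.62 to 16.95 CPM, so few counts stand behind most of them. Of the 8, 5 had 90 to 124 counts over all libraries and met the minimum of 80 only through the wild type libraries, where they are high. Gm9320, with 240 counts, also fell short of 80 in the libraries labelled knockout. The entry of such rows depends on the label where they are high, and nothing is read from the 61.5%. At 200 counts or more, 3 of 7 such rows were called, all lower (Gm9320, Gm26510 and Gm6548).

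**Figure D5:**
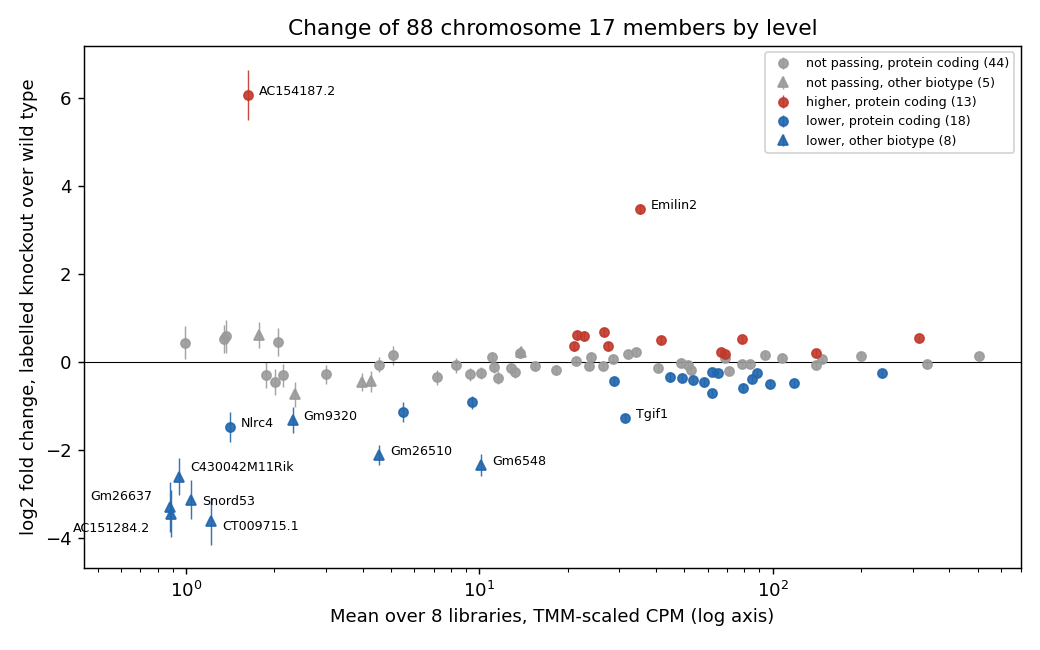
Log2 fold change (libraries labelled knockout over wild type, bars are SE) of the 88 genes against their mean CPM over 8 libraries on a log axis. Called changes of at least 2-fold lie at means of 35.2 CPM (Emilin2) or less, and no called gene with a mean of 60 CPM or more changed by more than 0.70 on the log2 scale.

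The called changes were larger at low levels, where most called rows met the minimum count through 1 label alone. Of 22 genes with a mean under 5 CPM, 1 was called higher and 8 lower, and all 9 changed at least 2-fold. Apart from Gm26510, each of these 9 entered through the label where it is high, and nothing is read from their size. The share over all genes at this level was not computed. Of 17 from 5 to 20 CPM 3 were called, all lower. Of 24 from 20 to 60 CPM 7 were higher and 6 lower, and of 25 at 60 CPM or more 5 were higher and 9 lower, none of them by 2-fold. At low counts a smaller change cannot be called at this depth, so these shares are not comparable between levels.

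By known role, the lists are small, and their counts stand beside 15.7 percent of all genes called higher and 14.6 percent lower. Of 11 genes of RNA and translation 2 rose (Gpatch11 and Srsf7) and 4 fell (Wdr43, Zfp36l2, Cebpz and Dhx57), with a median log2 fold change of -0.070. Of 13 signalling genes 2 rose (Calm2 and Ehd3) and 5 fell (Sos1, Prkd3, Rhoq, Rasgrp3 and Nlrc4), median -0.17. Ehd3 and Rhoq are counted on this list although they also act in membrane traffic. Of 10 genes of membrane traffic 1 rose (Ttc7) and 3 fell (Ston1, Ttc27 and Yipf4), median -0.12. Of 9 cytoskeletal, adhesion and matrix genes 4 rose (Emilin2, Fez2, Crim1 and Strn) and 2 fell (Myl12a and Eml4), median -0.13. With 1 library left out, Emilin2 and both falls kept their calls in all 8 fits, but Fez2, Crim1 and Strn did not. Of 10 genes of chromatin, transcription and genome upkeep 1 rose (Ndc80) and 2 fell (Tgif1 and Mta3), median 0.12. Of 8 metabolic and transport genes 2 rose (Lpin2 and Lclat1) and none fell, median 0.013. The 27 genes on no list held 1 rise, AC154187.2, and 10 falls, 8 of them at least 2-fold. The calls on the chromatin list (3 of 10) and on the metabolic list (2 of 8) were no more frequent than the background of 30.4 percent. These medians stand beside -0.00099 over all genes tested.

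At the limits of the rule, the genes just inside 80 counts were AC151284.2 with 90 and Gm26637 with 93. Just outside were CT010445.2 and Ltbp1 with 79 counts each, AC151284.1 with 75 and Clip4 with 74. AC151284.1, a pseudogene of Ube2c beside AC151284.2, had 17, 13, 18 and 10 counts in the wild type libraries and 2, 5, 6 and 4 in those labelled knockout, and was not tested. The gene nearest to 70 Mb inside was Tgif1, and those nearest outside were C030034I22Rik at -0.55 (SE 0.23) and Zbtb14 at 0.085 (SE 0.097). Near 90 Mb, Gm10184 at -0.44 (SE 0.30) lay inside and Gm6741 at 0.16 (SE 0.21) outside.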

How the data were processed

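The authors deposited raw counts per gene for 8 libraries of poly(A) RNA, with gene positions, biotypes and lengths. The tool fastp is named per the submitters' processing notes. For the aligner, counter, annotation, strand setting and genome build, nothing is stated in the sources at hand. Of 54532 gene identifiers, 54409 are in GENCODE M21, among them all 88 described genes (64 with identical coordinates), and positions are therefore those of GRCm38. Shared reads of overlapping genes or copies may have been split or dropped.

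The count analysis used edgeR 4.0.16 in R 4.3.3, beside limma 3.58.1. The filter filterByExpr (minimum count 10, total 15) kept 14428 genes. After TMM scaling, a robust quasi-likelihood F-test compared labels, two-sided, with genotype alone and Benjamini-Hochberg adjustment over all genes tested, and adjusted p under 0.05 was called. CPM values are TMM-scaled. Each SE is the fitted log2 change divided by the root of F. The steps were tested on simulated data. Counting intervals are exact at 95%, cover counting error only, and compare summed counts per summed total. Within each label, all pairs of libraries differed beyond sampling noise.

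The 88 genes and the role lists were chosen with earlier results of these data known. Genes named with each library's value were the 10 largest called rises and 10 largest called falls at 1 CPM or more on average, the 5 nearest to Cyp1b1 on each side, and called opposite-strand or head-to-head pairs. Up to 3 called genes of smallest p from each role list were also named with each library's value. Further called genes and Myl12b were named after their values were seen. Some items near the limits of the rule or on the lists are not reported here. Alternatives were other scalings, filters and tests (DESeq2 1.42.0, limma-voom), a block on replicate number, single libraries left out, protein-coding genes alone, at least 200 counts, and sides by gene middle.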

Additional observations from a re-analysis of the deposited data

Results flagged for a closer look

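In 5 of 104 groups of 4 libraries, over the called genes and the others given library by library, 1 library lay far from the other 3 by Dixon's test at 95%. Chance flags about 1 in 20 groups. Gm6548 was at 6.09 CPM in knockout replicate 4, with the other libraries labelled knockout at 2.19 to 2.77. Mta3 was at 80.9 CPM in knockout replicate 4, beside 71.2 to 72.1 in the others. Srsf7 was at 165 CPM in knockout replicate 1, beside 146 to 147 in the others. In the wild type libraries, Gemin6 was at 12.6 CPM in replicate 3 (others 9.73 to 10.2), and Ttc27 at 37.4 CPM in replicate 1 (others 31.1 to 31.9).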

How the results depend on the processing

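The counts called higher, lower, before and after Cyp1b1 stayed within 1.5 times their values under every alternative run. Over the refits on all biotypes, 12 to 13 genes were called with at least 2-fold change, 7 to 9 of other biotypes called lower, 0 to 2 called within 0.5 Mb of Cyp1b1, 6 to 9 called from 78 to 80 Mb and 4 to 6 on the cytoskeletal list (2 to 4 of them higher). Genes called higher ranged from 10 to 13 and lower from 23 to 27 when 1 library was left out, those before Cyp1b1 from 23 to 27 and after it from 9 to 13. DESeq2 gave 16 higher and 26 lower, library totals 10 and 28, and at least 200 counts 12 and 20. Of the 39 called genes, 31 were called in all 8 fits that leave out 1 library. Likewise 31 kept their call under every alternative that tests them, and the exceptions are Yipf4, Crim1, Fez2, Strn, Cebpz, Srsf7, Dhx57 and Thada. With 1 library left out, the estimate of Atl2 ran from -0.094 to 0.011 (without knockout replicate 4) and that of Galm from -0.20 to 0.016 (without wild type replicate 4), neither called at any setting, and the cause was not tested. With replicate number as a block, 14 were higher and 29 lower, 28 before and 15 after Cyp1b1, and 4936 genes were called in all against 4380. Deviations of same-numbered libraries correlated at 0.0507 to 0.0906. Libraries of unlike number were not compared, so whether the numbers pair the samples cannot be told. Depth limits the rows under 5 CPM.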
